A study of Rattus norvegicus with 3 samples.

Results

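The 144 cells described here were epithelial cells of the rat thymus to which the authors' annotation gave 1 of 5 labels: aaTEC1 (44 cells), mimetic(goblet) (55), mimetic(muscle) (35), mimetic(neuroendo) (9) and mimetic(ionocyte) (1). They were taken by label alone, using the projected label of each cell, and made up 1.09% (95% exact Clopper-Pearson interval 0.919 to 1.28) of the 13226 annotated cells of the stromal library. Among the 2338 cells of the 5 epithelial clusters, named TEC-a to TEC-e, they were 6.16% (5.22 to 7.21). Of the 144, 124 lay in cluster TEC-e and carried ionocyte genes whichever of the 5 labels they had. The 20 in other clusters had 0 UMIs of the ionocyte markers Foxi1 and Bsnd.

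Thymi came from 8-week-old Lewis rats, an inbred strain, with no treatment named. Stroma was freed with Liberase TH and DNase I, then depleted of CD45+ blood-derived cells by magnetic and flow sorting, and the resulting droplet library is 1 sample. The series further holds 1 thymocyte library and 1 Stereo-seq section, and its 2 single-cell libraries together have 21772 annotated cells. The labels do not say how many animals were pooled, and no second stromal library was analysed here, so nothing below has a replicate check and no p-value is given. The projected labels come from mouse reference data, per the series' design text, and were assigned from the same counts that are compared below, so every difference between labels is a description of these cells and not a test.

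Thymic epithelial cells present self molecules to developing T cells, and medullary epithelium makes many proteins of other organs for that purpose. Mimetic cells are medullary epithelial cells that take on the gene programme of a cell type from elsewhere in the body, such as goblet, muscle, neuroendocrine, tuft or ionocyte cells. Ionocytes themselves are rare, mitochondria-rich cells of the airway, kidney, inner ear and other epithelia, which move chloride, protons and other ions across the layer and depend on the transcription factor Foxi1.

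Levels are given as UMIs (unique molecular identifiers, 1 per captured RNA molecule) in single cells, or as CPM, the UMIs of a gene per 1000000 UMIs summed over a group. The 144 cells held 2151238 UMIs, with a median of 14582.5 per cell (754 to 42073), 4361.5 genes and 1.31% mitochondrial UMIs. The comparison group was the 2085 cells with the 5 common epithelial labels (cTEC, early Pr, mTEC1, mTEC2 and mTEC-prol), with 25804289 UMIs, medians of 11091 UMIs and 3788 genes per cell and 1.23% mitochondrial UMIs. All intervals are 95% intervals for counting error only. They do not cover variation between animals. No doublet caller was run. Of the barcodes, 38 occur in both libraries, and 0 of the 144 are among them.

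The 3 markers that define ionocytes were each present in most of the cells, and 2 of them, Foxi1 and Bsnd, were nearly absent from the common epithelial labels. Foxi1 had at least 1 UMI in 118 of 144 cells (81.9%, 74.7 to 87.9), against 1 of 2085 cells of the common epithelial labels (0.0480%). Free RNA in the droplets sets a floor for such shares. In the mesenchymal cells, which should lack Foxi1 and had a median of 9006.5 UMIs, 11 of 8216 cells held a UMI (0.134%). After every cell was thinned to 2000 UMIs, Foxi1 was found in 53.2% of the 141 cells deep enough and in 0 cells of the common labels.

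Bsnd, the gene of barttin, an accessory subunit of chloride channels, had a UMI in 118 of 144 cells, against 3 of 2085 (0.144%). Cftr, a chloride channel opened by cAMP signalling, was less restricted. It was found in 94 of 144 cells (65.3%) and in 223 of 2085 (10.7%), and after thinning in 33.3% and 2.57%. The highest common label for Cftr was mTEC2, at 51.4 CPM.

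The cluster separated the cells into those with and those without these markers. In TEC-e, 118 of 124 cells had Foxi1 (95.2%, 89.8 to 98.2), with 0 to 27 UMIs per cell and a median of 7. Bsnd ranged from 0 to 33 UMIs (median 8) and Cftr from 0 to 42 (median 3). All 3 markers were seen together in 83 of the 124 cells, at least 2 in 122 and at least 1 in all 124. The 6 cells without a Foxi1 UMI each held Bsnd (1 to 11 UMIs) and Stap1 (3 to 53 UMIs). Outside TEC-e, 0 of 20 cells had Foxi1, which allows a share of up to 15% of cells with a UMI by the limit of 3 counts, and 16.8% by the exact binomial interval.

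**Figure D1:**
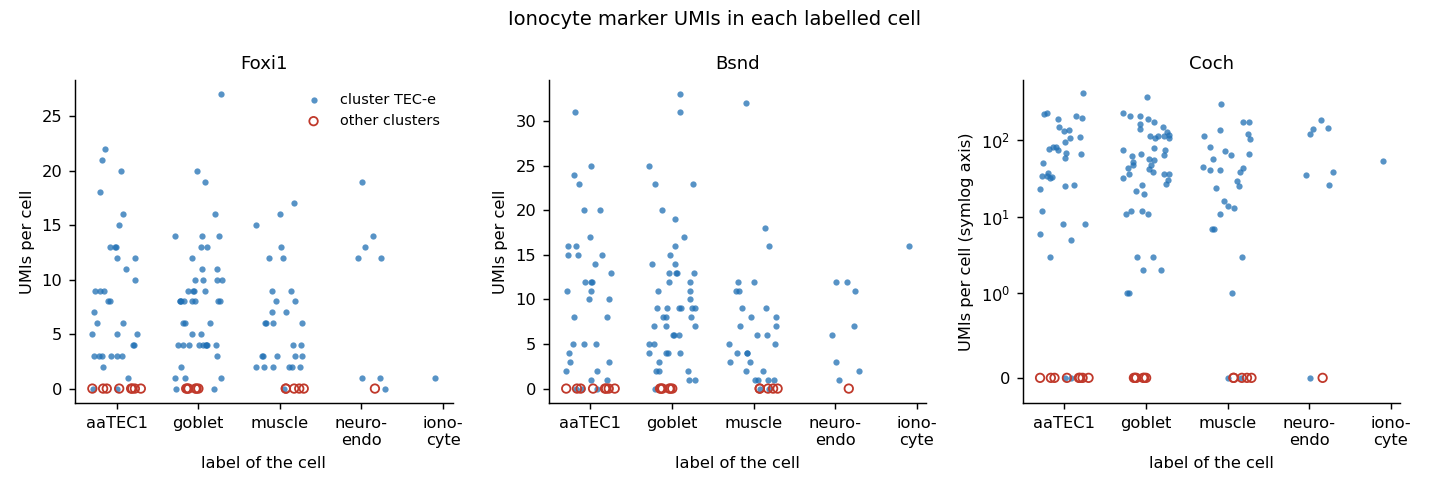
UMIs of Foxi1, Bsnd and Coch (vertical axes, the last on a symmetric log axis) in each of the 144 cells, by label (horizontal axis). Filled points are the 124 cells of cluster TEC-e and open circles the 20 cells of other clusters; all 20 open circles lie at 0, while filled points above 0 occur under every label.

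The 4 larger labels overlapped in their marker counts. Within TEC-e, Foxi1 was found in 34 of 36 aaTEC1 cells (0 to 22 UMIs, median 7.5), in 47 of 49 goblet-labelled cells (0 to 27, median 8), in 29 of 30 muscle-labelled cells (0 to 17, median 6) and in 7 of 8 neuroendo-labelled cells (0 to 19, median 12). The single cell labelled mimetic(ionocyte) had 18050 UMIs, of which 1 was Foxi1, 16 Bsnd, 4 Cftr and 54 Coch. That cell lay inside the range of the cells with other labels for each of the 4 genes. It also held 207 UMIs of Ccl21, the CCR7 ligand, and 95 of 6 fibroblast genes. The medians in TEC-e were 1 and 6.5 UMIs.

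Of the 20 genes in the ionocyte lists (transcription factors, chloride channel genes, the proton pump subunits restricted to acid-secreting cells, and other genes known from ionocytes), 17 had enough UMIs to be compared. All 17 were at least 3-fold higher in the 144 cells than in the pooled common labels, with at least 20 UMIs. Over all 10827 genes compared, 657 were (6.07%). A listed gene near 0 elsewhere enters this comparison only through the 144 cells, so the count is a description. The median ratio over the 20 listed genes, with ratios against fewer than 3 UMIs taken against 3, was 280, and that over all compared genes 0.973. The remaining 3 were Atp6v1b1 with 9 UMIs, Atp6v0a4 with 1 and Moxd1 with 0.

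Among the transcription factors, Foxi1, the factor that directs the ionocyte programme, stood at 448 CPM (420 to 477), on 963 UMIs. The common labels had 1 UMI, so the ratio of 11551 has a counting interval of 2068 to 456719. Ascl3, a basic helix-loop-helix factor of airway ionocytes, was at 29.8 CPM in the 144 cells, again against 1 UMI. Dmrt2, a DM-domain factor, reached 799 CPM against 90.6, a ratio of 8.81 (8.27 to 9.38). Tfcp2l1, a factor of the kidney collecting duct, reached 653 CPM against 24.3, a ratio of 26.8 (24.4 to 29.5). Foxi2, a close relative of Foxi1 that was on no list, was at 296 CPM on 636 UMIs, against 5 UMIs in the common labels. Foxi1 and Ascl3 were thus near 0 in the 5 common labels, while Dmrt2 and Tfcp2l1 had a measurable level in other epithelium.

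The start regions of 3 of these genes are shown because Foxi1 is the factor that defines the cells, and because Bsnd and Atp6v1g3 are, in ionocytes of other organs, among the genes that accompany it. Each is the RefSeq sequence of assembly GRCr8 from 250 bases before to 50 bases after the annotated start, 5′ to 3′ on the gene's strand. Capitals mark matches to TGTTTA, the core bound by forkhead factors, and to CAGCTG, an E-box form bound by basic helix-loop-helix factors, searched on both strands.
Foxi1 (chr10:19314356-19314655, minus strand): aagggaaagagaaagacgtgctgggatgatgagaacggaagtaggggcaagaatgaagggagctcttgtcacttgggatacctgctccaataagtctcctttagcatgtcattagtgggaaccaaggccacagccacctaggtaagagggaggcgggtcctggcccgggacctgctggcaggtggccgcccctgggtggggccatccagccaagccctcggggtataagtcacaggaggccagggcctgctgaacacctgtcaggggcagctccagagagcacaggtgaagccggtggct
Bsnd (chr5:126489340-126489639, minus strand): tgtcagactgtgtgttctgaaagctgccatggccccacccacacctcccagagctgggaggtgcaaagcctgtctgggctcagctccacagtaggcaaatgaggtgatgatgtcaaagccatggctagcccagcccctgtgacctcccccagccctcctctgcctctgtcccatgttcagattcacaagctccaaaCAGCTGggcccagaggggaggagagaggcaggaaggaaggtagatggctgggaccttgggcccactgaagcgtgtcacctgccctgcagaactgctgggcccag
Atp6v1g3 (chr13:52362082-52362381, plus strand): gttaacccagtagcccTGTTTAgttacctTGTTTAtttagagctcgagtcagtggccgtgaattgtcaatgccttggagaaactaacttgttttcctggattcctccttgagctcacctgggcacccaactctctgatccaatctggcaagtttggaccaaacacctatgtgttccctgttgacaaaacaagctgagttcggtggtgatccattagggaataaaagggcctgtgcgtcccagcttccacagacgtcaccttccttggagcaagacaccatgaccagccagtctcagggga

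In these windows the Foxi1 region had neither motif, Bsnd had 1 match to CAGCTG, whose first base is at -54 from the start, and Atp6v1g3 had 2 matches to TGTTTA, at -234 and -221. Matches of this length are common: TGTTTA was in 13.7% of 27457 start regions and CAGCTG in 15.1%. Of the 20 ionocyte list genes, 16 had a start region, and TGTTTA was in 2 of them (Atp6v1b1 and Atp6v1g3) and CAGCTG in 4 (Asgr1, Bsnd, Hepacam2 and P2ry14). Among the genes at least 3-fold higher, 488 had a start region, with TGTTTA in 7.38% and CAGCTG in 19.1%, against 7.66% and 15.5% of the 8728 compared genes with one. The 2 motifs do not overlap in sequence. A match says only that the letters are there.

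The chloride genes Bsnd and Cftr were both well above other epithelium. Bsnd was at 548 CPM (517 to 580), on 1179 UMIs, against 4 UMIs in the common labels, a ratio of 3536 (1377 to 12998). Cftr was at 251 CPM (230 to 273) against 14.3, a ratio of 17.6 (15.4 to 20.2). Of the 2 genes, Bsnd was the more restricted, with a level near 0 in the 5 common labels.

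The vacuolar proton pump, a complex of many subunits that acidifies compartments or the cell's surroundings, showed 1 strong restricted subunit. Atp6v1g3, a G subunit known from kidney intercalated cells, was at 1264 CPM on 2719 UMIs, against 8 UMIs, a ratio of 4077 (2066 to 9453). It had 0 to 173 UMIs per TEC-e cell (median 12.5) and was seen in 104 of the 124. Atp6v1c2 reached 152 CPM, a ratio of 48.4 (37.9 to 62.6), and Atp6v0d2 35.3 CPM on 76 UMIs. The partners used in kidney and inner ear, Atp6v1b1 and Atp6v0a4, stayed at 4.18 CPM (1.91 to 7.94) and 0.465 CPM (0.0118 to 2.59), on the 9 and 1 UMIs given above.

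The 17 widely used pump genes were all above the common labels in ratio, from 1.11 for Atp6v0a2, where the intervals of both groups overlap, upwards, with a median of 2.13. For 6 of the 17 the ratio reached 3-fold, against 6.07% of all compared genes. Atp6v0c, the proteolipid of the proton channel, was at 1504 CPM (ratio 5.78), and Atp6v0b, a second proteolipid, at 502 CPM (7.94). The catalytic subunit Atp6v1a was at 208 CPM (4.05), and Atp6v1h, Atp6v1d and Atp6v1e1, which belong to the soluble part, had ratios of 4.21, 3.63 and 3.13.

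**Figure D2:**
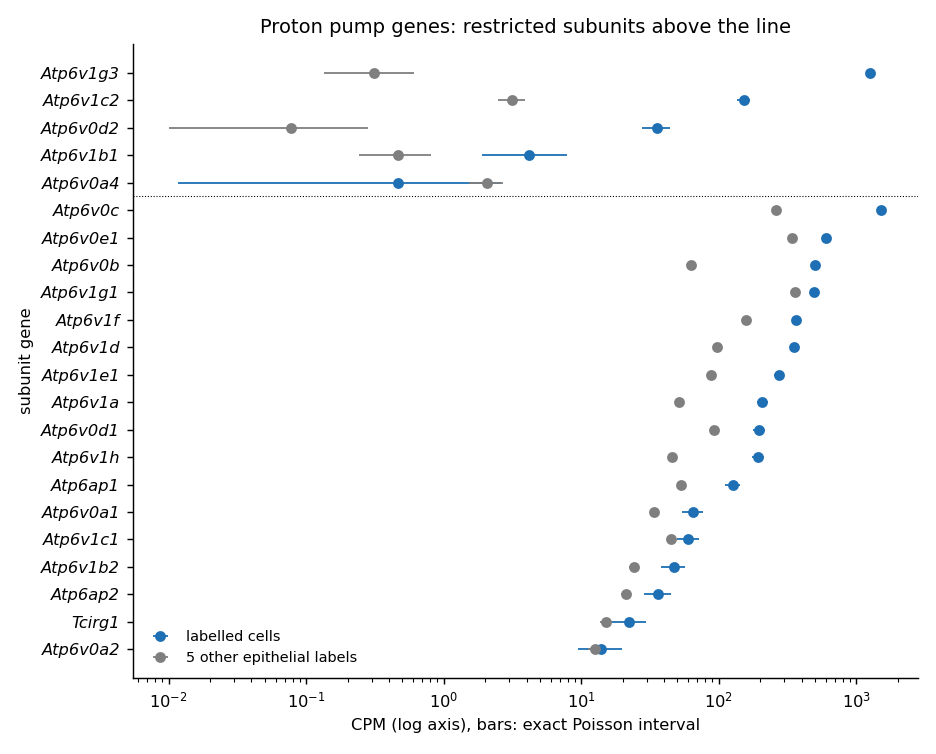
Level of each proton pump gene in CPM (horizontal log axis) in the 144 labelled cells (blue) and in the 5 other epithelial labels (grey), with exact 95% Poisson intervals as bars. Above the dotted line, Atp6v1g3, Atp6v1c2 and Atp6v0d2 lie far to the right of the grey points while Atp6v0a4 does not; below it, the blue points of the 17 widely used genes lie to the right by 1.11-fold or more.

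Other ion transport genes ranged from genes found in every TEC-e cell to genes with 0 UMIs. Slc12a2, which brings sodium, potassium and chloride into the cell together, was found in 124 of 124 TEC-e cells with 2 to 92 UMIs (median 32.5). It stood at 1999 CPM in the 144 cells against 41.3, a ratio of 48.4 (45.3 to 51.8). Kcnma1, the pore of a calcium-activated potassium channel, was likewise in 124 of 124, with 5 to 224 UMIs (median 37.5), and at 2597 CPM with a ratio of 33.3 (31.7 to 35.1). The 3 genes of the epithelial sodium channel were all higher. Scnn1a was at 307 CPM (ratio 19.4), Scnn1b at 192 CPM (68.0) and Scnn1g at 162 CPM (49.7). Atp1b1, a beta subunit of the sodium pump, was at 313 CPM, 6.77 times the pooled labels but below mTEC2 at 475 CPM.

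By contrast Slc4a1, Slc26a7, Rhcg, Car2 and Kcnj16, which serve bicarbonate, anion, ammonia and potassium transport or carbon dioxide hydration in kidney intercalated and related cells, each had 0 UMIs in the 144 cells. A count of 0 at this depth has an upper bound of 1.71 CPM. Slc26a4, pendrin, had 11 UMIs. Of the 17 ion transport genes listed, 7 had enough UMIs to be compared, 6 were at least 3-fold higher and 0 lower, against 6.07% and 9.11% of all compared genes. As with the ionocyte lists, a gene near 0 elsewhere enters only through the 144 cells, so this count is a description.

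The remaining ionocyte list genes were among those with the widest gap to other epithelium. Coch, the gene of the inner-ear matrix protein cochlin, had 0 to 416 UMIs per TEC-e cell (median 48.5), was found in 119 of 124, and reached 4363 CPM in the 144 cells, 1632 times (1288 to 2099) the common labels. Stap1, a signalling adaptor, had 0 to 98 UMIs per cell (median 26) and reached 1664 CPM, a ratio of 1342 (949 to 1965). Asgr1, a subunit of the asialoglycoprotein receptor, was at 391 CPM (1443-fold), and Hepacam2, an adhesion molecule of the immunoglobulin superfamily, at 161 CPM against 1 UMI. Pde1c, a calcium-regulated cyclic nucleotide phosphodiesterase, was at 901 CPM (50.2-fold) and P2ry14, a receptor for UDP-sugars, at 72.1 CPM (32.1-fold). Moxd1 alone of this list was at 0 UMIs.

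Ranked by the ratio to the highest of the 5 common labels, the 20 leading genes mixed these with genes on no list. A label with fewer than 3 UMIs was taken at 3 UMIs, which is 3.43 CPM in the small mTEC2 label. The ratios and the order of genes with fewer UMIs there, such as A2ml1 and Foxi1, therefore depend on that floor. Lgals5, a galectin, was at 1675 CPM and 489 times the highest label. A2ml1, a protease inhibitor related to macroglobulin, was at 1307 CPM and 381 times the floor. The ionocyte genes Atp6v1g3 (369 times), Stap1 (243), Coch (225), Foxi1 (131), Bsnd (120), Asgr1 (85.7) and Hepacam2 (47.1) were also among the 20, each against the highest label or that floor.

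The other leading genes covered several functions. Cdkn1c, the cell cycle inhibitor p57, was at 10837 CPM against 34.1 in the pooled labels and 95.0 times the highest. Sult5a1, a sulfotransferase, was at 2472 CPM and 114 times. Iapp, the gene of the islet hormone amylin, was at 310 CPM in 50.7% of cells and 90.5 times. Cd24, a surface glycoprotein, was at 1715 CPM and 44.5 times. Hspb7, a small heat shock protein (109 times), Ppp1r17, a phosphatase inhibitor (90.9), Clnk, an adaptor of immune receptor signalling (89.8), Foxi2 (86.3), Ctxn3 (81.8) and Slc16a11, of the monocarboxylate transporter family (70.6), were also in the set.

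Further transport and hormone genes were picked out after their values were seen. Slc4a11, a transporter of the bicarbonate transporter family, was at 112 CPM against 4 UMIs in the common labels, and Kcns3, a modifying potassium channel subunit, at 172 CPM (22.8-fold). Hsd11b2, which inactivates glucocorticoids and so protects the mineralocorticoid receptor, was at 260 CPM (137-fold). Esrrg, an orphan nuclear receptor, was at 491 CPM, 9.13 times the pooled labels but 1.63 times mTEC2, which had 300 CPM. Edn3, an endothelin, was at 245 CPM (162-fold), and Atp2a3, a calcium pump of the endoplasmic reticulum, at 299 CPM (92.9-fold). Agtr1b, an angiotensin receptor, was at 56.7 CPM and Gprc6a, an amino acid receptor, at 63.2 CPM, each against 1 UMI.

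**Figure D3:**
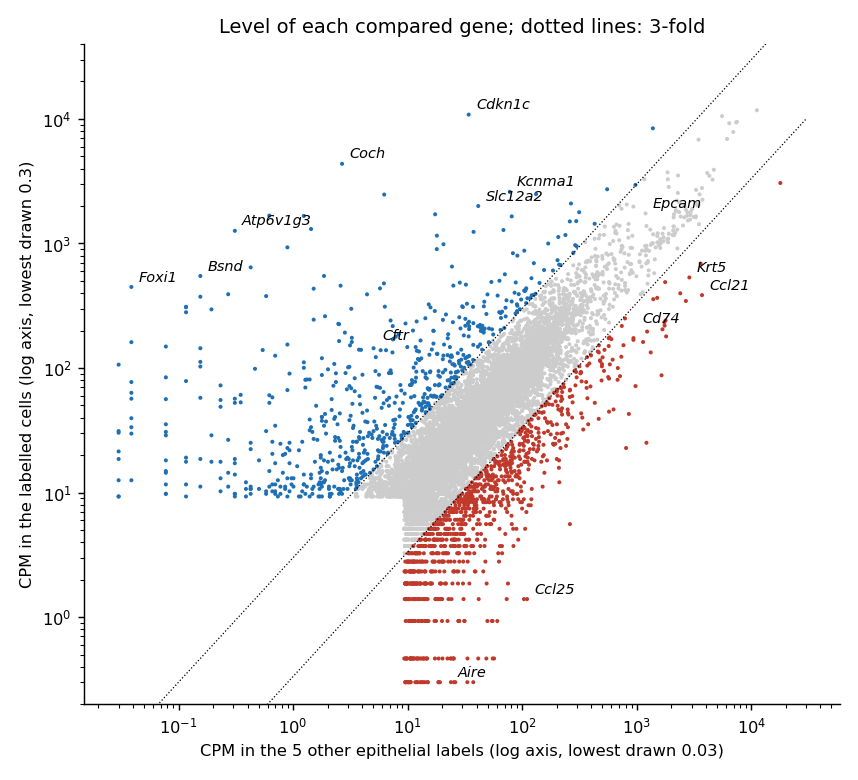
Level of each of the 10827 compared genes in the 144 cells (vertical log axis, CPM) against the pooled 5 other epithelial labels (horizontal log axis, CPM). Dotted lines mark 3-fold; the 657 blue points are at least 3-fold higher and the 986 red points at least 3-fold lower, with Foxi1, Bsnd, Atp6v1g3 and Coch at the upper left and Ccl25 and Aire at the bottom.

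General epithelial genes were kept, while basal keratins and antigen presentation by class II were low. Epcam, an epithelial adhesion molecule, was at 1743 CPM against 1191 (ratio 1.46), and the simple-epithelium keratins Krt8 and Krt18 at 1281 and 1386 CPM (1.53 and 1.96). The thymic epithelial factors Pax9 and Pax1 had ratios of 1.21 and 0.708. Of 15 pan-epithelial genes, 0 were at least 3-fold higher and 6 at least 3-fold lower, against 9.11% of all compared genes in the lower direction (986 of 10827). Those 6 were Krt5 (534 CPM against 2873), Krt14, Krt17, Krt19, the basal factor Tp63 (ratio 0.0939) and Foxn1, the master factor of thymic epithelium (6.51 CPM against 32.2).

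The members outside TEC-e carried most of what was left of these genes. In TEC-e cells Krt5 was at 52.2 CPM, with a median of 0 and a highest of 79 UMIs, and Krt14 at 39.1 CPM. In the 20 cells outside, the ratio to the common labels was 1.56 for Krt5 and 1.67 for Krt14.

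All 6 class II genes were at least 3-fold lower, against 9.11% of all compared genes, with a median ratio of 0.132. Cd74, the invariant chain, was at 345 CPM against 2680 (ratio 0.129, 0.120 to 0.139), and Ciita, the class II transactivator, had 0 UMIs. Summed over the 6 genes, a TEC-e cell had a median of 2 UMIs, a cell outside TEC-e 37.5, and a cell of the common labels 72. Class I genes, chosen after their values were seen, went the other way. B2m, the shared light chain, was at 10539 CPM against 5548 (ratio 1.90), RT1-A3 at 1440 CPM (3.36) and RT1-CE5 at 2023 CPM (2.88). Against single labels the gap was smaller or turned: mTEC2 had more B2m (11809 CPM) and 1012 CPM of RT1-A3, and mTEC-prol had 1635 CPM of RT1-CE5. The class I genes of the rat are near-copies of each other, so reads may be split among them.

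Genes of the other thymic epithelial subsets were low as well. Of 7 cortical genes, 6 could be compared and 5 were at least 3-fold lower, against 9.11% of all compared genes, among them Ccl25, a chemokine for early thymocytes (1.39 CPM against 110), Prss16, a protease of cortical epithelium (3.72 against 46.8) and Tbata (22.8 against 806). The exception was Dll4, the Notch ligand of the cortex, at 26.5 CPM against 5.93 (ratio 4.47, 3.24 to 6.09), although mTEC2 had 26.3 CPM. Of 7 medullary genes, 5 were at least 3-fold lower, against the same 9.11%, with Aire, the regulator of peripheral antigens, at 0 UMIs, Fezf2 at 3.25 CPM (ratio 0.0953) and Ccl21, the CCR7 ligand, at 385 CPM against 3706. A TEC-e cell had a median of 1 Ccl21 UMI, and 3 TEC-e cells had 50 or more, up to 306. In the Notch list, Hey1, a target, was higher (9.76 against 2.17 CPM), as was Dll4. The ligands Jag2 and Dll1 were lower (ratios 0.223 and 0.217), and the 5 others of the 9 compared, Hes1 at a ratio of 2.44 included, did not reach 3-fold. Over all compared genes, 6.07% were at least 3-fold higher and 9.11% lower.

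The 10 genes with the lowest ratios were Cenpf, Khdrbs2, Ccl25, Car3, Bcl2a1, Cyp2s1, Pla2g4c, Guca2b, Rbp4 and Gpha2. Gpha2, a glycoprotein hormone subunit, was the most abundant of them elsewhere, at 1213 CPM against 25.1. Cenpf, a centromere protein of dividing cells, had 1 UMI in the 144 cells. In the list of 6 proliferation genes, 4 could be compared, of which 3 were lower and 0 higher, against 9.11% and 6.07% of all compared genes.

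**Figure D4:**
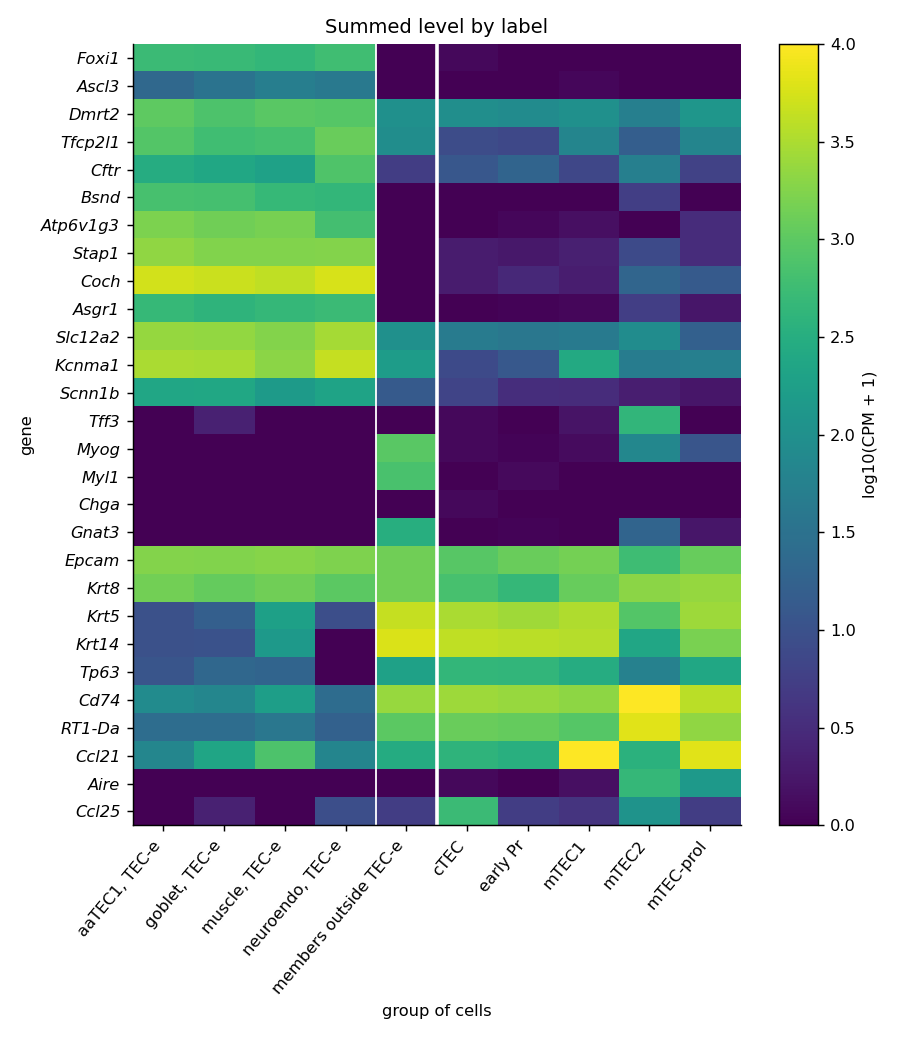
Summed level, as log10(CPM + 1) on the colour scale, of 28 genes (rows) in the TEC-e cells of 4 labels, the 20 members outside TEC-e and the 5 other epithelial labels (columns). The 4 left columns share the ionocyte rows from Foxi1 to Scnn1b and are lower in Krt5, Krt14 and the class II genes than most of the 5 right columns, while the middle column resembles the right side except in Myog, Myl1 and Gnat3.

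Within TEC-e the 3 larger labels had close levels of the ionocyte genes. For the 15 ionocyte list genes with at least 100 UMIs there, the highest of aaTEC1, goblet and muscle over the lowest ranged from 1.15 to 1.70, with a median of 1.30, and 0 of the 15 differed by 3-fold. Foxi1 was at 531 CPM in aaTEC1, 511 in goblet-labelled and 444 in muscle-labelled cells. Coch was at 5347, 4869 and 4209 CPM in the same order, and Atp6v1g3 at 1634, 1370 and 1499 CPM. The order of the 3 labels was thus not the same for each gene.

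The 8 neuroendo-labelled cells of TEC-e were apart in a few genes. Cftr was at 778 CPM there, against 297, 240 and 196 CPM in aaTEC1, goblet and muscle, and 1 cell held 44.2% of the label's Cftr UMIs. Atp6v1g3 was lower in them, at 647 CPM. Rab17, a vesicle-transport GTPase of epithelia, and Nptx1, a pentraxin, led that label over the rest of the group by 3.66-fold (2.25 to 5.74) and 3.56-fold (2.24 to 5.48). With 8 cells, single cells weigh heavily: 53.8% of the Nptx1 UMIs of the label came from 1 cell.

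The genes after which the labels are named were mostly absent from the cells that carried them. Goblet cells are mucus-secreting cells, and the 49 goblet-labelled TEC-e cells had 4 UMIs of the 12 goblet genes in all (5.16 CPM), with 10 of the 12 at 0. In mTEC2 the same list stood at 949 CPM. Over all 144 cells the list had 30 UMIs, of which 29 were Fcgbp, a protein of mucus, and 1 was Tff3, a trefoil peptide. Neuroendocrine cells store peptides in granules, and the neuroendo-labelled cells of TEC-e had 2 UMIs of the 13 neuroendocrine genes (16.4 CPM), with 11 at 0, against 806 CPM in mTEC-prol. Chga, the granule protein that is the usual marker, was at 0 UMIs in them.

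The muscle list gave the same picture in TEC-e and a different one outside it. The 30 muscle-labelled TEC-e cells had 29 UMIs of the 18 skeletal muscle genes (67.0 CPM), with 16 of the genes at 0. That is below the 130 CPM of aaTEC1 and the 110 CPM of goblet-labelled cells in the same cluster, and below mTEC2 at 1222 CPM. Actc1, a cardiac and fetal muscle actin, supplied much of it, with 166 UMIs spread over 38.9% of the 144 cells. Myog, the muscle differentiation factor, had 0 UMIs in TEC-e. Its 220 UMIs all lay in 3 muscle-labelled cells of other clusters.

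These 3 cells differed from one another. The first, in TEC-a with 9421 UMIs, had 18 UMIs of Myog, 66 of the muscle list and 19 of the 13 tuft-cell genes. The second, also in TEC-a with 13876 UMIs, had 31 of Myog, 80 of Acta1 (skeletal actin), 211 of the muscle list and 114 of the tuft list, including 65 of Gnat3, the taste G protein of tuft cells. The third, in TEC-d with 31836 UMIs, had 171 of Myog, 168 of Myl1 (a myosin light chain), 56 of Ckm (muscle creatine kinase) and 579 of the muscle list. Of the 9 muscle genes compared over all 144 cells, 7 were at least 3-fold higher, against 6.07% of all compared genes. However, 6 of these 7 (all but Actc1) rest on 3 cells or fewer. The 2 other muscle-labelled TEC-d cells had 0 and 3 UMIs of the list.

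Tuft-cell genes were otherwise near 0. Gnat3 and Trpm5, genes of tuft-cell chemosensing, had 0 UMIs in TEC-e. Dclk1, a kinase often used as a tuft marker, was the exception, with 821 UMIs in 76.4% of the 144 cells, 382 CPM and a ratio of 6.26 (5.75 to 6.82). Of the 6 tuft genes compared, 3 were at least 3-fold higher and 1 lower, against 6.07% and 9.11% of all compared genes. However, the UMIs of Gnat3 and Gnb3, the 2 higher genes besides Dclk1, lay in 2 cells each. In the microfold list all 3 compared genes were at least 3-fold lower, as was the 1 enterohepatic gene that could be compared. The parathyroid list had 0 genes with enough UMIs to be compared. Of 2 ciliated genes compared, 1 was at least 3-fold higher and 1 lower. In the keratinized list 0 of 3 compared genes reached 3-fold in either direction, and in the neuroendocrine list 3 of 4 were lower. The shares over all compared genes, 6.07% higher and 9.11% lower, are the same for these lists.

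**Figure D5:**
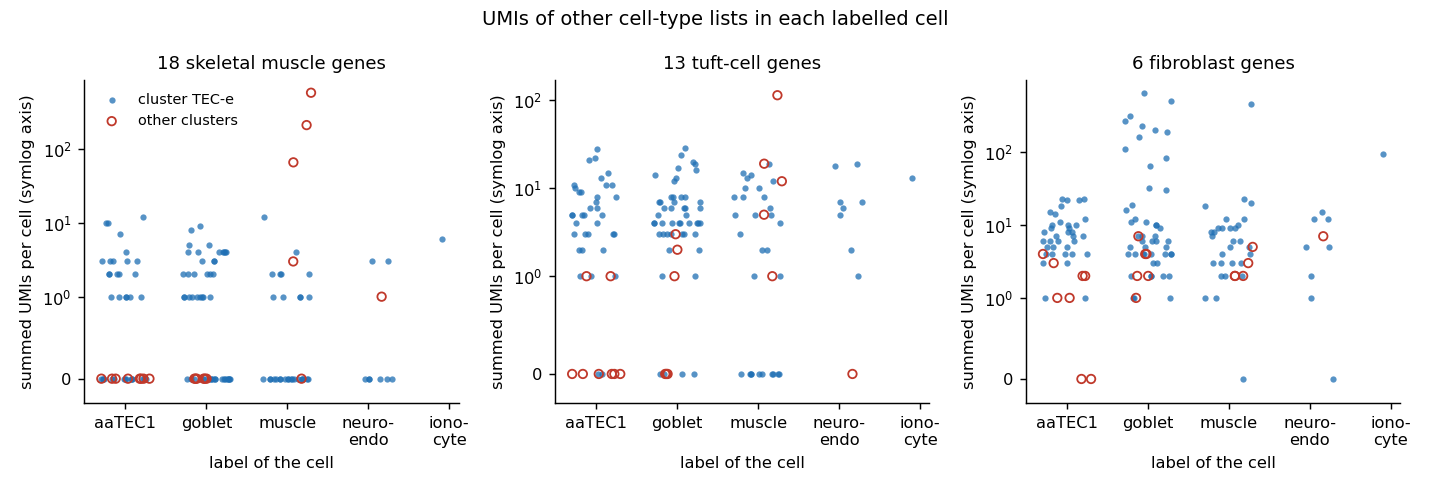
Summed UMIs per cell (symmetric log axes) of 18 skeletal muscle, 13 tuft-cell and 6 fibroblast genes in each of the 144 cells, by label (horizontal axis). The 3 highest muscle sums are open circles (cells outside TEC-e) under the muscle label, and the fibroblast sums above 50 are filled points, most of them under the goblet label.

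The 20 members outside TEC-e had 0 UMIs of Foxi1, Bsnd and Coch. They were 6 aaTEC1 cells in TEC-b and 2 in TEC-c, 6 goblet-labelled cells in TEC-b, 2 muscle-labelled cells in TEC-a and 3 in TEC-d, and 1 neuroendo-labelled cell in TEC-a. Their median depth was 11334 UMIs. Of the ionocyte list genes, 2 were at least 3-fold higher in these 20 cells, Pde1c and Tfcp2l1, against 17 in the 144. Pde1c had 22 UMIs in 20% of the 20 cells and Tfcp2l1 21 UMIs in 30%. Dmrt2, with 24 UMIs in 35%, did not reach 3-fold. Over all genes, 122 were at least 3-fold higher in the 20 cells and 657 in the 144. The same minimum of 20 UMIs was used on 234532 UMIs in the 20 cells and 2151238 in the 144. Fewer genes could therefore be called in the 20 cells, and the counts of 2 and 122 are given without a share. The aaTEC1 and goblet-labelled cells among them held 5 to 177 UMIs of Krt5 and 0 to 290 of Krt14, and 0 each of Foxi1, Bsnd and Coch. The neuroendo-labelled cell had 2199 UMIs over 587 genes. It held 217 UMIs of the class II list, 70 of them Cd74, and 10 of the myeloid list, the highest myeloid sum among the 20 cells. Its pan-epithelial list had 4 UMIs, with 0 of Krt5 and Krt14. Whether it is an epithelial cell was not tested.

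Matrix genes led the differences between the labels. Over all cells of the 2 largest labels, 174 of 5385 genes with at least 30 UMIs in either were at least 3-fold higher in goblet-labelled cells (3.23%) and 8 in aaTEC1 (0.149%). In TEC-e, 171 of 4974 were higher in goblet-labelled cells (3.44%), and 3 were higher in aaTEC1 (0.0603%). The goblet-labelled cells were led over the rest of the group by C7, a complement component (6.22-fold), Mgp, a matrix calcification inhibitor (6.07-fold), and Col3a1, a collagen (5.10-fold). Dpt, a matrix protein of dermis, was at 452 CPM against 21.1, and Col6a1 at 269 CPM against 10.5.

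The fibroblast list moved with this difference. Summed over 6 fibroblast genes, goblet-labelled TEC-e cells had 1 to 652 UMIs (median 6), and 11 of 49 had at least 50. In aaTEC1 cells of TEC-e the range was 1 to 23 (median 7), with 0 of 36 at 50 or more, and 1 of 30 muscle-labelled cells reached 50. The single ionocyte-labelled cell had 95. Mesenchymal cells had a median of 290. Without the cells at 50 or more, 26 of 3973 genes were higher in goblet-labelled cells (0.654%) and 2 in aaTEC1 (0.0503%). Whether the fibroblast RNA came from a second cell in the droplet was not tested. The share of cells with Foxi1 changed little without them, from 81.9% to 80.2%.

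Single cells decided several other differences. Reg3a and Reg3g, antimicrobial lectins, were higher in goblet-labelled cells, but 99.3% and 99.2% of their UMIs lay in 1 cell. In the muscle-labelled cells of TEC-e, Krt17, Krt14, Krt5 and the chemokine Ccl19 were higher than in goblet-labelled cells, with 97.1%, 93.7%, 96.3% and 96.0% of the UMIs in 1 cell. Acta2, smooth muscle actin, had all 61 of its UMIs in 1 cell. Among genes spread over more cells, Emb, an adhesion glycoprotein, led aaTEC1 over the rest of the group by 2.59-fold (1.83 to 3.67).

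Markers of blood and vessel cells were low in the group as a whole, while fibroblast genes had UMIs in most cells. The 6 fibroblast genes summed to 2163 CPM in the TEC-e cells, with at least 1 UMI in 122 of 124. A TEC-e cell had a median of 6.5 of these UMIs, and 13 cells had 50 or more. The sum was 562 CPM in aaTEC1 cells of TEC-e and 3900 CPM in goblet-labelled ones. Over the 144 cells, the median ratio of the 6 genes to the common labels was 0.556. The 10 thymocyte genes summed to 29 UMIs over the 144 cells (13.5 CPM), against 34.0 CPM in the common labels. One cell had 3 or more of them, with 8. Genes of the B cell and red cell lists had too few UMIs to be compared, and the highest endothelial sum in a TEC-e cell was 30 UMIs. No gene of the fibroblast, endothelial, mural and myeloid lists was at least 3-fold higher than in the common labels, and 2 of 6 compared fibroblast genes were lower. Over all compared genes, 6.07% were higher and 9.11% lower.

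The nuclear-coded genes of the mitochondrial respiratory chain, taken by symbol with their assembly factors after values had been seen, were shifted together. Of 96 compared, 88 had a ratio above 1 and the median was 1.70, although 1, Uqcrb, reached 3-fold upwards (841 CPM, ratio 3.02) and 1, Cox4i2, was at least 3-fold lower (18.1 CPM against 128). Cytoplasmic ribosomal protein genes went the other way, with 86 of 91 below 1 and a median of 0.640, and 0 reached 3-fold in either direction. Over all compared genes the median was 0.973, with 6.07% at least 3-fold higher and 9.11% lower. Both families' shifts held under the other scalings and the cell filters that kept both clusters' members (medians 1.60 to 1.77 and 0.603 to 0.689). In TEC-e cells alone the medians were 1.80 and 0.599, and in the 20 cells outside 1.03 and 0.984.

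Several of the strongest genes were neighbours in the order of compared genes, which skips genes that were not compared. In RefSeq's GRCr8 annotation, Bsnd neighbours Tmem61, a membrane protein gene at 458 CPM (177-fold), on chromosome 5. Scnn1g and Scnn1b are adjacent on chromosome 1, and Asgr1, Asgr2, Slc16a13, Slc16a11 and Rnasek form a run of 5 compared genes on chromosome 10, with 2 genes that were not compared between Asgr1 and Asgr2. Lgals5 and its relative Lgals9 (1240 CPM, 33.0-fold) lie there with 1 such gene between them. Of the 632 genes at least 3-fold higher that could be placed, 163 had another such gene as the next compared gene (25.8%), against 1048 of 9897 other genes (10.6%). Near-copies among neighbours can share reads, and whether overlapping gene models share reads was not tested.

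The section gave no position for these cells. Of its 592087 labelled bins, 0 carried 1 of the 5 labels in any place, and the same held for 572683 labelled segmented cell bins. The labels used there number 31, of which 5 are epithelial: cTEC, early Pr, mTEC1, mTEC2 and mTEC-prol. The absence of the label therefore says nothing about where the cells lie.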

How the data were processed

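UMI counts of the stromal library are whole-number counts deposited by the authors, made with Cell Ranger 8.0.0 and Seurat 5.3.0 on build mRatBN7.2, per the submitters' processing notes. The mitochondrial percent of each cell and the embedding score were deposited by the authors, who also deposited RCTD weights as a fraction per bin. Of these only the percent is reported. Labels were the projected labels, or the cluster where none was given. UMIs were summed per group. A gene counted as higher at a ratio of at least 3 with 20 UMIs in the 144 cells, and as lower at 1 in 3 with 20 UMIs expected. Intervals are exact, at 95%. Ratios against fewer than 3 UMIs were called against 3.

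The text names genes of 29 lists, the 20 genes with the largest ratio to the highest common label (at least 50 UMIs, 25% of cells), the 10 with the smallest ratio (100 UMIs expected), up to 10 each way between the 2 largest labels (30 UMIs), and 3 per label of at least 5 cells; others are said to be chosen after their values were seen. Some genes that these rules name are not reported here. Of 247 listed genes 246 were found. Members and lists were chosen with earlier results of these data known. RefSeq's GRCr8 tables, matched by symbol, gave gene order and start regions. With a different build in the files, no coordinate of theirs was used. The ratio step was tested on simulated data. Scripts ran in Python 3.11.15 with pandas 2.3.3, SciPy 1.17.1, matplotlib 3.10.9 and NumPy 2.4.6. Thinning used seed 7. Of 16160 barcodes, the 2934 without annotation entered no comparison.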

Additional observations from a re-analysis of the deposited data

Results flagged for a closer look

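Barcodes outside the annotation held the same marker pair. Of the 2934 stromal barcodes without annotation, 15 had a Foxi1 UMI and 4 had UMIs of both Foxi1 and Bsnd, whereas 0 of 10888 annotated non-epithelial cells had both. These 4 barcodes had 30 to 79 Coch UMIs and 1897 to 7385 genes, and 2 of the 4 were above 6999 genes, the highest number among annotated cells.

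Cells of TEC-e with labels other than the 5 described also carried the markers. TEC-e held 9 such cells, 6 labelled mimetic(tuft) and 3 labelled aaTEC2. All 9 had Foxi1 (3 to 26 UMIs) and Bsnd (2 to 25 UMIs), and 0 had a UMI of Trpm5, Gnat3 or Pou2f3. The 3 aaTEC2 cells had 203 to 261 UMIs of Dcn, a fibroblast proteoglycan. Outside TEC-e, 19 cells carried the tuft label, of which 11 had Gnat3, 13 had Pou2f3 and 1 had Foxi1, with 6 UMIs. The 5 labels therefore do not take in every TEC-e cell with this profile.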

How the results depend on the processing

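Of 48 recomputed summary values, 38 stayed within 1.5 times or within the interval of the value reported, and 10 moved. The number of genes at least 3-fold higher (657) was 334 after thinning to 2000 UMIs and 122 in the members outside TEC-e alone. The number at least 3-fold lower (986) was 313 after thinning, 624 with a minimum of 50 UMIs, 1833 with a minimum of 5, and 87 outside TEC-e. Thinning, fewer cells and another minimum each change how many genes can be compared. The ionocyte list count (17) was 2 outside TEC-e, and 15 to 18 under all other settings. The share of cells with Foxi1 (81.9%) was 53.2% after thinning, 95.2% in TEC-e and 0% outside. Settings restricted to TEC-e or to the cells outside, and those without cells with at least 50 fibroblast-gene UMIs, were chosen after seeing the data. Of the genes at least 3-fold higher in TEC-e alone (660), 607 were shared with the count over the 144 cells.

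Among single genes, 243 values stayed, 106 moved and 20 changed direction. The ratio of Myog was 0 in TEC-e. Outside TEC-e it was 0 for Lgals5, A2ml1, Atp6v1g3, Stap1, Coch, Foxi1, Bsnd, Sult5a1, Hspb7, Ppp1r17, Iapp, Clnk, Foxi2, Asgr1 and Ctxn3, 0.743 for Slc16a11, 0.299 for Cftr, 1.56 for Krt5 and 1.67 for Krt14. Not every leading gene was lost there. Cdkn1c was at 3147 CPM in 25% of the cells outside, against 34.1 CPM in the common labels. Cd24 was at 46.9 CPM against 17.4, and Hepacam2 at 38.4 CPM in 10% of cells against 0.0388. The cluster name alone gives no member, since no cluster is named after 1 of the 5 labels. No paired analysis was possible because no group has a second sample. With 1 library, depth limits statements on genes under 20 UMIs, and differences between animals cannot be told apart from those between cells.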
